A study of Homo sapiens with 42 samples.

Results

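Hep3B, a human hepatoma cell line, was kept for 6 h in CM, a medium that the labels describe as rich in pro-inflammatory cytokines, or in its control medium NCM, and mRNA was measured by array. Every array that the labels place at 6 h was used, which gave 3 CM and 3 NCM arrays out of 42 in the series. Each of the experiments S1, S2 and S3 supplied 1 culture per medium from a single batch of detached cells, so the 6 arrays form 3 pairs. The other arrays cover the same cells in CM and NCM at T0, 15 min, 30 min, 1 h, 3 h and 16 h, and the question named in the labels is how mRNA abundance changes over that course. The labels do not name the cytokines or their doses, and 1 hepatoma line stands here for liver cells.

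When pro-inflammatory cytokines reach hepatocytes, the liver alters its output of plasma proteins, a programme known as the acute phase response. Interleukin-1 and TNF act largely through NF-kappaB, which is held in the cytoplasm by inhibitors such as NFKBIA until these are degraded. Interleukin-6 acts through STAT3, and C/EBP factors bind many acute phase promoters. Interferon signalling is known to raise the immunoproteasome, which cuts peptides for antigen presentation.

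Each array held 13824 probes, of which 7336 name 1 gene, and these cover 5631 genes. The deposited intensities had a mean over all probes near 1 on each array. They were quantile normalized, values below 0.0813 were set to that floor (-3.62 on the log2 scale), and log2 was taken. A change is CM minus NCM on this log2 scale, averaged over 3 pairs, with its SE and test from limma fitted on all 42 arrays, and the brightest probe stands for a gene where no other is named. Before normalization the interquartile range of the log2 intensities was 0.86 and 0.94 on the CM and NCM arrays of S1, 1.73 and 1.18 on those of S2, and 1.64 and 1.46 on those of S3, so the arrays of S1 had the narrowest spread. The medium and the array of a culture cannot be told apart within a pair, and precision is limited by the 3 arrays per group. Of 17 hepatocyte markers 15 were measured, and none of the 15 lay at or below the median probe level, among them ALB, AFP, TTR, APOA1 and SERPINA1.

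At 6 h, limma called 0 of 13824 probes at an adjusted p under 0.05, which is 0% of those tested, and the smallest adjusted p was 0.232. At an unadjusted p under 0.05 there were 305 probes with a higher and 215 with a lower mean in CM, and the results below are therefore given as values. A change of more than 1.5-fold in each of the 3 pairs was found for 26 probes in the higher direction, 0.188% of those tested, and for 18 in the lower, 0.13%. At T0 the same count was 1 higher and 16 lower, at 15 min it was 15 and 17, at 30 min 5 and 17, at 1 h 14 and 14, at 3 h 15 and 12, and at 16 h 31 and 11. Of the 26 higher probes at 6 h, 10 belonged to IL32, PLAT, ANXA1, ABCA1, PSME1, PECAM1, TGM2, CD5L, IL1R1 and ITIH4 and 1 to C3, while 14 carried no gene name and 1 named several genes. That C3 probe was not the brightest of its gene, which had a change of 0.016, and the mean of the C3 probes was 0.375. The count moved with the scaling. In the values as deposited it was 7 higher and 11 lower at 6 h against 2 and 31 at T0, and with median centring 10 and 2 against 2 and 8. With values under the 10th percentile set to it, the count was 14 and 8 at 6 h against 0 and 2 at T0.

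**Figure D1:**
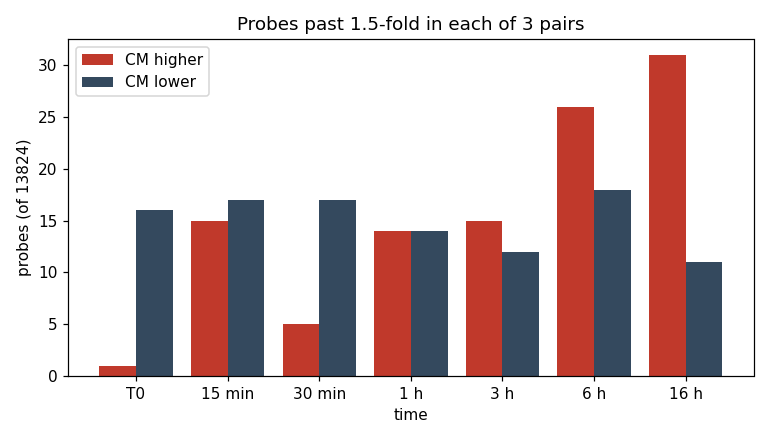
Bars give the number of probes, of 13824, whose CM value was more than 1.5-fold above (red) or below (dark blue) the NCM value in each of the 3 pairs, at 7 times on the x axis. At 6 h 26 probes were higher and 18 lower, against 1 and 16 at T0, and in the values as deposited these counts were 7 and 11 against 2 and 31.

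The differences in the 3 pairs were nearly unrelated across probes. Across all probes the CM minus NCM differences of S1 and S2 correlated at -0.021, those of S1 and S3 at -0.006, and those of S2 and S3 at 0.04 (Pearson's r over 13824 probes, which share arrays and are not independent). The SD of these differences over probes was 0.52 in S1, 0.52 in S2 and 0.41 in S3, and the highest single difference was 2.65 in S1, 6.06 in S2 and 3.27 in S3. Genes with over 1 probe give a second view of the noise: in 1128 such genes the changes on the compared probes correlated at 0.12 and had the same sign in 55.8%, and in the 445 whose probes were both above the median level these were 0.17 and 57.1%.

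**Figure D2:**
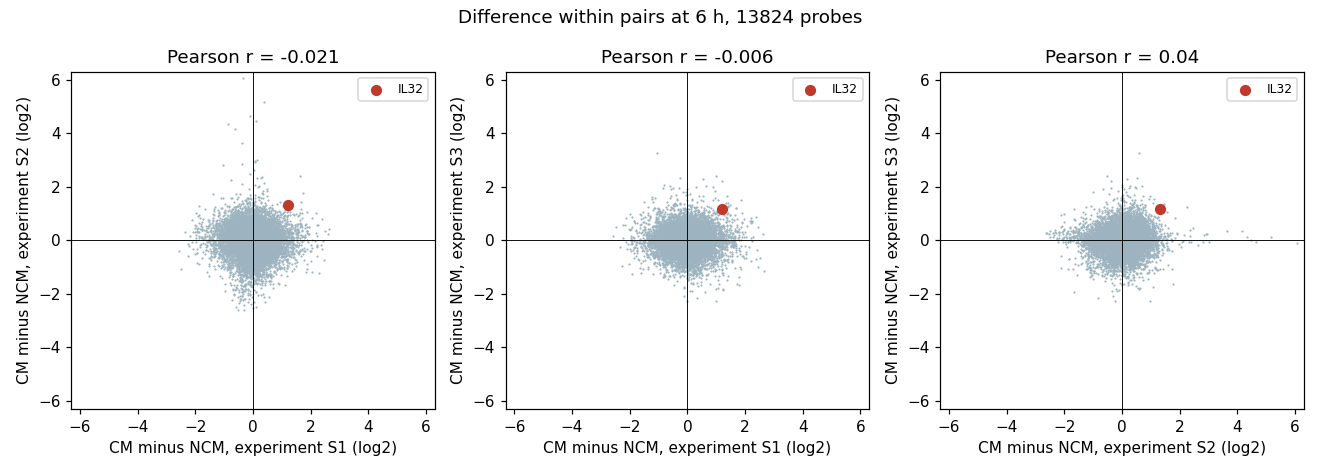
Each grey point is 1 of 13824 probes, and the axes give its CM minus NCM difference (log2) in the named experiments at 6 h. The clouds show no common slope (r of -0.021, -0.006 and 0.04), while IL32 (red) lay above 1 in all 3 experiments, and a tail of probes reached high differences in S2 alone.

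IL32, the gene of a pro-inflammatory cytokine (probe 5093, chromosome 16), had the smallest unadjusted p at 6 h. Its log2 intensity was 0.48, 0.52 and 0.54 in CM of S1, S2 and S3 and -0.74, -0.81 and -0.65 in NCM. The groups did not overlap, and the pair differences were nearly the same, with an SD of 0.08. The mean change was 1.24 (SE 0.23, n = 3 pairs), or 2.37-fold, with an adjusted p of 0.232 by limma. CCL20, the gene of a chemokine that draws CCR6-bearing leukocytes, had 0.49, 1.39 and 1.30 in CM against 0.14, -0.46 and 0.48 in NCM. Every CM array lay above every NCM array, with the narrowest gap in S1. Its change was 1.01 (SE 0.36, n = 3 pairs, limma adjusted p 0.999), and without S2 it was 0.59. The other measured cytokine and chemokine genes gave no common direction: of 21 genes of that list 10 lay above 0 and 11 below, with a median of -0.00, against 47.3% above 0 and a median of -0.02 over all 5631 genes. CXCL8 had 0.47, with 0.14 and -0.15 on its other probes. CXCL2 had 0.11 and IL6 0.11, while CSF3 had -0.65, and none of these genes passed the threshold.

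The receptor gene IL1R1, through which interleukin-1 signals, had 2 probes that differed. On probe 8544 the log2 intensity was -0.47, -0.77 and -0.66 in CM and -1.65, -1.56 and -1.90 in NCM, so the groups were separate in all 3 experiments. That change was 1.07 (SE 0.20, n = 3 pairs) with a limma adjusted p of 0.232, while the brighter probe 425 had 0.17 (SE 0.24) and was lower in CM in S3. Of the 14 measured genes of interleukin-1 and TNF receptor signalling, 4 lay above 0 and 10 below, with a median of -0.05.

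Genes of 2 proteasome subunits with a role in antigen processing stood among the leading genes. PSMB10, a catalytic subunit of the immunoproteasome (chromosome 16), had -1.26, -0.38 and -1.16 in CM and -3.22, -0.88 and -1.97 in NCM. It was higher in CM within each pair, but the groups overlapped, since NCM of S2 lay above CM of S1 and S3. Its change was 1.09 (SE 0.22, n = 3 pairs, limma adjusted p 0.339), with 0.65 without S1 and 0.56 in the values as deposited. PSME1, a subunit of the PA28 activator of the proteasome, had 0.77, -0.33 and -0.48 in CM against -0.06, -1.25 and -1.32 in NCM. The pair differences of 0.83, 0.91 and 0.84 were even, on a level that was higher in S1 than in S2 and S3 in both media, and the change was 0.86 (SE 0.23, n = 3 pairs, limma adjusted p 0.833). The antigen presentation list as a whole was mixed. Of its 17 measured genes 9 lay above 0 and 8 below, with a median of 0.00, and 4 were higher and 3 lower in 3 of 3 pairs, where 12.8% of all genes were higher and 12.6% lower in this way. HLA-DMA, which helps load class II molecules, had -0.74, and the peptide transporter genes TAP1 and TAP2 had -0.17 and -0.41. TAPBP, the gene of tapasin, had -0.46 on its brightest probe and 0.72 on probe 758. Of the 26 measured constitutive proteasome genes 11 lay above 0, with a median of -0.02, and of 26 interferon response genes 12 lay above 0, with a median of -0.03 and IDO1 at 0.61.

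**Figure D3:**
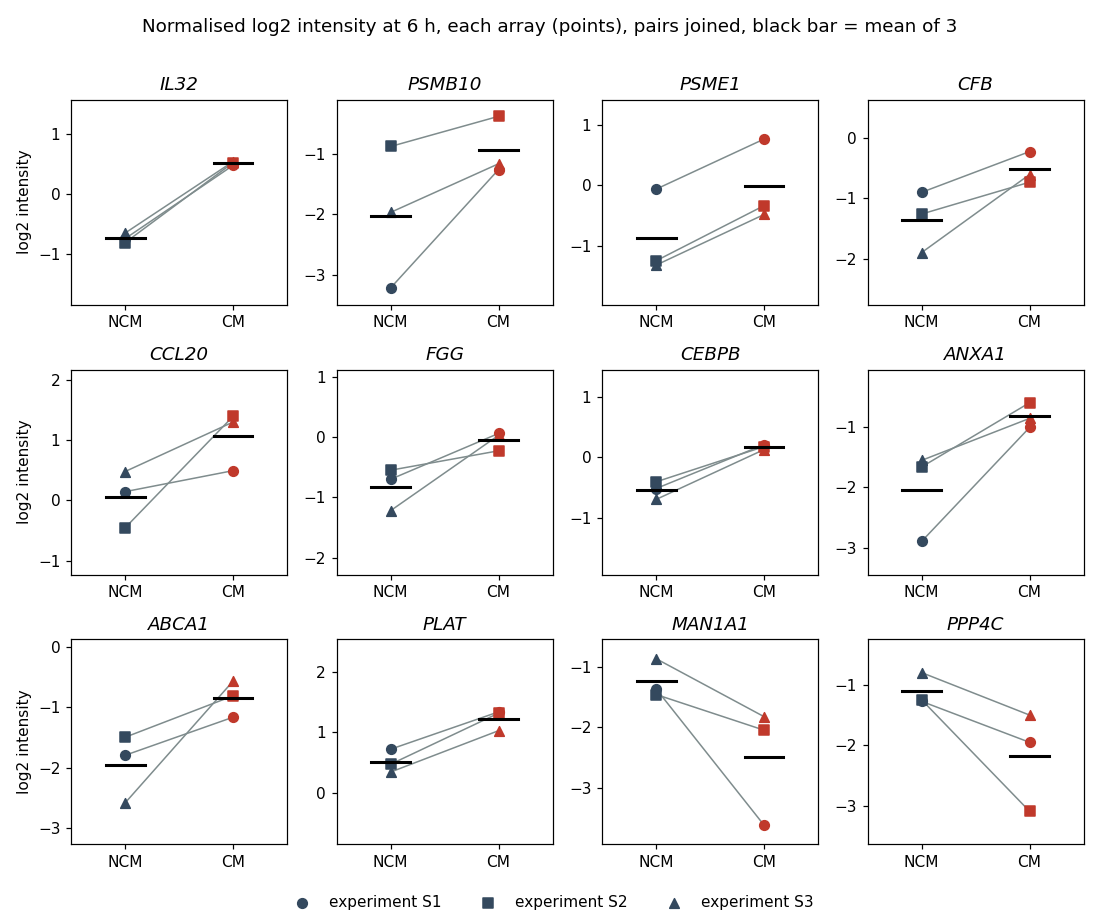
Each panel gives 1 gene, with the normalised log2 intensity of each 6 h array on the y axis (all panels span the same range), NCM at left and CM at right, 1 symbol per experiment, lines joining pairs and black bars for the mean of 3 arrays. IL32 and CEBPB separate the media with little spread, PSMB10 and PSME1 are higher in each pair but overlap between groups, and MAN1A1 and PPP4C are lower in CM in each pair.

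Promoter sequences are shown for IL32, CCL20 and PSMB10, for CFB of the complement system, described next, and for NFKBIA, whose value was large at 1 h and small at 6 h. They are the 250 bases before the annotated start, 5′ to 3′ on the gene's strand, from RefSeq on GRCh38.p14, and capitals mark matches to the motifs searched.
IL32: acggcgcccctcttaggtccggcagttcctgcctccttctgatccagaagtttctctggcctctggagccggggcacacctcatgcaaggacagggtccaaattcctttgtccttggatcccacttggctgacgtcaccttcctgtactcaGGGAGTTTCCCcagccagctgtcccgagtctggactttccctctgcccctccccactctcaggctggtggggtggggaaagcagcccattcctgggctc
CCL20: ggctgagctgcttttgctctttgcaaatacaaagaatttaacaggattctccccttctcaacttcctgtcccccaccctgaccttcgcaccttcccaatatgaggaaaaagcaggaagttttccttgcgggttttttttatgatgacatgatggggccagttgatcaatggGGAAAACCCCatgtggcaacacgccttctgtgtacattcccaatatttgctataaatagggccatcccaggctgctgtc
PSMB10: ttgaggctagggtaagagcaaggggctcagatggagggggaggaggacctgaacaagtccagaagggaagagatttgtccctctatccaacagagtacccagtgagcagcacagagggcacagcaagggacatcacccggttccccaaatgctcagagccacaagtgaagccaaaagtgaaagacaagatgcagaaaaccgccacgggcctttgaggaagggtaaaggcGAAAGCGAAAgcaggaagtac
CFB: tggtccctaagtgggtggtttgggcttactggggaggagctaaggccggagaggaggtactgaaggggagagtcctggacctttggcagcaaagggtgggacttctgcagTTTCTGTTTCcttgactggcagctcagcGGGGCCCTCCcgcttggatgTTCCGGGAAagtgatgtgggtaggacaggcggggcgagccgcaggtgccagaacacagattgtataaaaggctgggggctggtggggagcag
NFKBIA: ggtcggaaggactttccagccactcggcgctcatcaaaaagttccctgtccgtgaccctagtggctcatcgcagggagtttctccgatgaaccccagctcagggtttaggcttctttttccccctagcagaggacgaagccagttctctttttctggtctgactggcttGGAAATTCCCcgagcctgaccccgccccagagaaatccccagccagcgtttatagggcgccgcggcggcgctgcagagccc
These lie at chr16:3065153-3065402 (plus strand), chr2:227813592-227813841 (plus), chr16:67936851-67937100 (minus), chr6:31945845-31946094 (plus) and chr14:35404750-35404999 (minus). The motifs were the NF-kappaB consensus, C/EBP (TTGCNNAA), STAT (TTCNNNGAA), ISRE, the interferon-stimulated response element (GAAANNGAAA), and AP-1 (TGANTCA), each searched on both strands of the 300 bases from 250 before to 50 after the start. IL32 has 2 overlapping NF-kappaB matches that begin 99 and 98 bases before the start, CCL20 has 1 at 79 and NFKBIA 1 at 81. PSMB10 has an ISRE match 21 bases before the start, and CFB has ISRE, NF-kappaB and STAT matches at 140, 112 and 92.

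Of the 15 leading higher genes 10 had a promoter in the table. Among those 10, an NF-kappaB match was found in 2 (CFB and IL32), an ISRE match in 3 (CFB, PSMB10 and PSME1, the last just after the start), a STAT match in 2 (ANXA1 and CFB), a C/EBP match in 1 (ANXA1) and an AP-1 match in 0. Of the 15 leading lower genes 12 had a promoter, and 0 held any of the 5 motifs. Over all 27305 promoters of this length the share with a match was 10.8% for NF-kappaB, 10.6% for C/EBP, 7.88% for STAT, 3.65% for ISRE and 7.76% for AP-1. A match is a run of letters and not a measured site.

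Most acute phase genes lay above 0, and none was called. Of 20 measured genes known to rise in the acute phase, 16 lay above 0 and 9 were higher in 3 of 3 pairs, against 12.8% of all genes, and the median change was 0.16. By pair the median was 0.15 in S1, 0.27 in S2 and 0.03 in S3. At an unadjusted p under 0.05 there were 4 higher and 0 lower genes of the list, where 1.69% of all genes were higher and 1.67% lower. CFB, the gene of complement factor B, had -0.23, -0.73 and -0.61 in CM and -0.90, -1.26 and -1.90 in NCM. The groups did not overlap, and the change was 0.83 (SE 0.22, n = 3 pairs, limma adjusted p 0.833), but 2 other probes of CFB had -0.19 and 0.27 and the mean of its probes 0.30. FGG, which encodes the gamma chain of fibrinogen, had 0.06, -0.23 and 0.03 in CM and -0.70, -0.55 and -1.22 in NCM, a change of 0.78 (SE 0.33). Its other probes had 0.28 and 0.61, each higher in 3 of 3 pairs.

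The remaining acute phase genes had smaller or uneven values. FGB, of the beta chain of fibrinogen, had 0.68, from differences of 1.06, 1.02 and -0.04, and -0.11 on its other probe, whereas FGA of the alpha chain had 0.17. HP and HPR, the haptoglobin gene and its near-identical neighbour, had 0.48 and 0.61, and their probes may share transcripts. ORM1, of the carrier protein orosomucoid, had 0.37 with 0.26 and 0.37 on other probes, and it was at 1.23 at 16 h. CRP, of C-reactive protein, disagreed between probes: the brightest had -0.07, probe 5655 had 0.44 and probe 5788 had 1.12, the latter with -0.14, -0.30 and -0.28 in CM and -1.05, -0.75 and -2.29 in NCM. ITIH4, of an inter-alpha-trypsin inhibitor heavy chain, had 0.38 on its brightest probe, 1.19 on probe 8239 and -0.15 on probe 9401, and the latter 2 held equal values on both S3 arrays. PTX3, of a pentraxin, was the gene of the list with the lowest value, -0.47. Every CM array lay below every NCM array, as in 2.65% of all genes. Its signal was low, with mean log2 levels of -2.40 in CM and -1.93 in NCM. With the floor at the 10th percentile its change was -0.15.

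Plasma proteins known to decline in the acute phase gave no common direction, with 9 of 18 measured genes above 0, 9 below and a median of -0.01. The apolipoprotein genes APOA1 and APOA2 had -0.57 and -0.49. For APOA1 the values were 0.57, -1.28 and -0.06 in CM against 0.86, -0.51 and 0.59 in NCM, lower in each pair but with overlapping groups, and its other probes had -0.22 and -0.01. ALB and TTR, of albumin and transthyretin, had 0.02 and 0.01. FETUB, of fetuin B, had the highest change of the list, 1.21, but its differences were -0.37, 3.65 and 0.36, and without S2 it had -0.01. Among 22 complement genes 14 lay above 0 with a median of 0.03. C8A, of a membrane attack subunit, had 0.70 on its brightest probe and 0.14 and -0.24 on others.

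NF-kappaB genes had a median change of 0.22, with 11 of 14 measured genes above 0, 5 higher and 1 lower in 3 of 3 pairs. Over all genes 47.3% lay above 0, and 12.8% were higher and 12.6% lower in 3 of 3 pairs. Of the 14 genes 8 lay at or below the median probe level, against 42.3% of all genes. By pair the median was 0.24, 0.18 and 0.25, but in the values as deposited the median was 0.02. BCL3, an atypical member of the inhibitor family that acts in the nucleus, had -1.11, -1.09 and -1.36 in CM and -1.89, -1.61 and -1.94 in NCM. The groups did not overlap, and the change was 0.63 (SE 0.24). BIRC2, which encodes an inhibitor of apoptosis bound to TNF receptor complexes, had 0.62, of which S1 gave 1.26 and the other pairs 0.33 and 0.26, so that without S1 it was 0.29. The other probe of BIRC2 had 0.12. TNFAIP2 had 0.41 and the deubiquitinase gene TNFAIP3 0.29, and in the values as deposited these were 0.108 and 0.016. The subunit gene NFKB1 had 0.32, or 0.045 without S1, with 0.078 and 0.156 on its other probes. NFKBIA had 0.11. CYLD, of a deubiquitinase that restrains the pathway, had -0.32 and was lower in 3 of 3 pairs.

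Apoptosis regulators, 10 measured, had 8 genes above 0 and a median of 0.23. FAS, the death receptor gene, had -1.25, -1.37 and -2.20 in CM and -2.02, -2.02 and -2.75 in NCM. It was higher by 0.78, 0.65 and 0.55 within pairs while both S3 arrays lay low, and the change was 0.66 (SE 0.27). BCL2L2 and BCL2, genes of proteins that oppose cell death, had 0.70 and 0.44, and CASP10 had 0.40. The BCL2L2 differences were 1.48, 0.38 and 0.24, and without S1 BCL2L2 had 0.31 and BCL2 0.20. TNFRSF10B, a TRAIL receptor gene, had -0.35 and was lower in each pair. BIRC2 belongs to this list too, and 4 of the 10 genes lay at or below the median probe level. Without the dimmest 25% of probes 5 genes were left, with a median of 0.07.

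Of the C/EBP genes, CEBPB, a transcription factor of the acute phase, had 0.21, 0.18 and 0.13 in CM and -0.52, -0.41 and -0.70 in NCM. The groups were separate with little spread in either, and the change was 0.71 (SE 0.24, n = 3 pairs, limma adjusted p 0.999). Of its other probes, 9631 had 1.04, from differences of 2.20, 0.27 and 0.64 with NCM of S1 at the floor, and 10615 had 0.38. CEBPD had 0.55 on its brightest probe but -0.65 and -0.05 on others. Of the 17 measured STAT3 pathway genes, which include CEBPB, 8 lay above 0 with a median of -0.04. STAT3 itself had -0.22 and its feedback inhibitor SOCS3 -0.10. Among the 18 immediate early genes FOS, an AP-1 subunit, had -0.60 and was lower in each pair, and the median was 0.01.

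**Figure D4:**
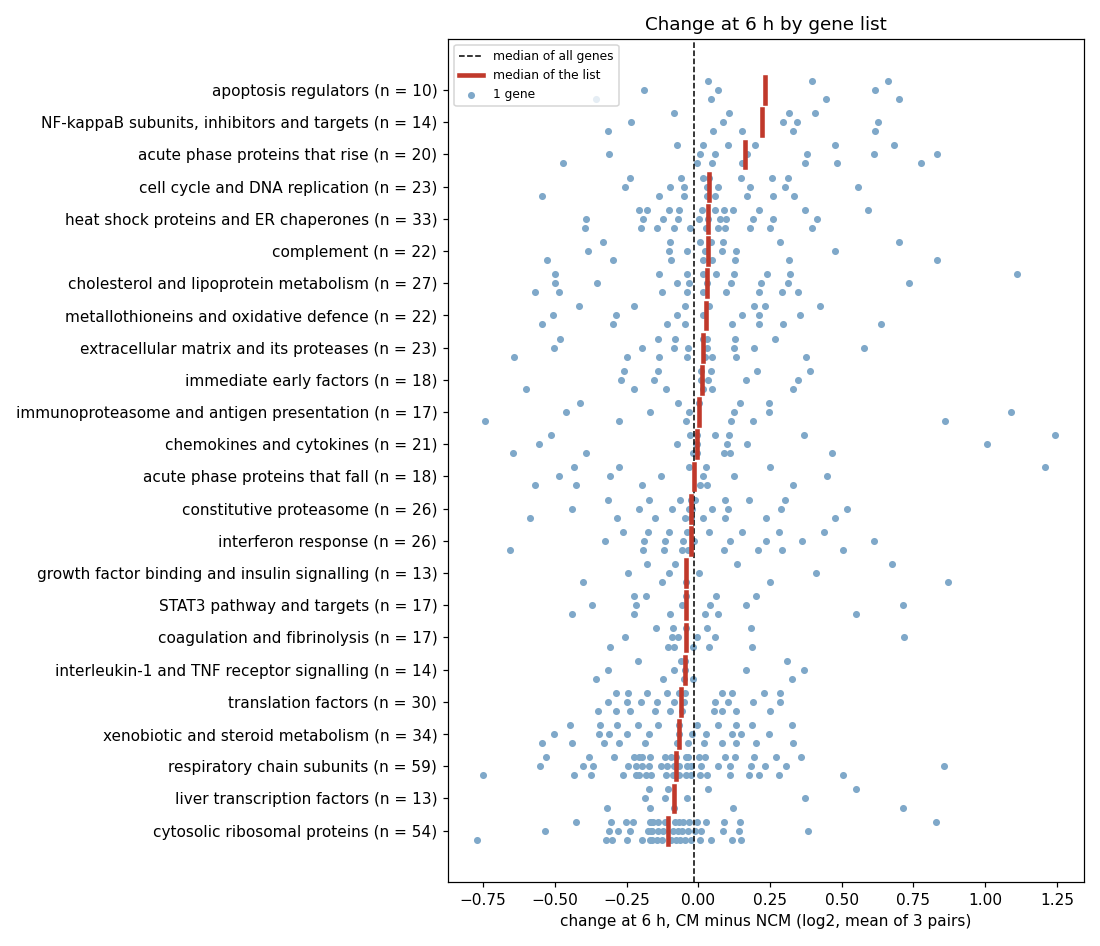
The x axis gives the change at 6 h (log2, mean of 3 pairs), each blue point is 1 measured gene of the list named at left, red bars are list medians and the dashed line is the median of all 5631 genes, -0.02; lists of cell type markers are not plotted. Among the lists plotted apoptosis (0.23), NF-kappaB (0.22) and acute phase proteins that rise (0.16) have the highest medians, and cytosolic ribosomal proteins the lowest (-0.11).

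Several leading genes belong to none of these pathways. ANXA1, of annexin A1, a mediator that limits inflammation, had -1.01, -0.60 and -0.86 in CM and -2.90, -1.66 and -1.55 in NCM. The groups were separate, with the lowest array in NCM of S1, and the change was 1.22 (SE 0.26, n = 3 pairs, limma adjusted p 0.339). ABCA1, the cholesterol exporter, had -1.17, -0.81 and -0.57 in CM and -1.80, -1.50 and -2.59 in NCM. Its groups were separate too, and the change was 1.11 (SE 0.29, n = 3 pairs, limma adjusted p 0.833), or 0.66 without S3. PLAT, of tissue plasminogen activator, had 1.34, 1.32 and 1.03 in CM and 0.72, 0.47 and 0.34 in NCM, a change of 0.72 (SE 0.19). The lipid transfer gene CETP had 0.74, with a difference of 1.31 in S2, where NCM was at -3.28, near the floor. Its signal was low, with a mean log2 level of -2.03 over the 42 arrays. With the floor at the 10th percentile the CETP change was 0.33. The haem oxygenase gene HMOX1 had 0.64, of which S2 gave 1.41. The other 2 probes of HMOX1 had 0.07 and 0.02. In the list of cholesterol and lipoprotein genes 16 of 27 lay above 0 with a median of 0.03, and ABCA1 and CETP held its highest values.

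Other genes among the 15 with the smallest p in the higher direction were MRPL23, of a mitochondrial ribosomal protein, at 0.64, TET2, of a DNA demethylating enzyme, at 0.73, and UBXN2B at 0.83. PDXDC2P-NPIPB14P, a transcribed pseudogene of a repeated family, had 0.91, and its probe may bind related copies. PECAM1, an endothelial adhesion gene, had 0.80, with -0.35, -1.03 and -0.52 in CM against -1.42, -1.78 and -1.11 in NCM. Of 6 measured endothelial markers 4 lay above 0 and 3 were at or below the median probe level. VWF had -0.10 and KDR 0.09. PECAM1 is 1 of these 6 markers and had the highest change of them, so it adds to the gap between media in their mean level. The mean log2 level of the 6 ran from -0.86 to -0.78 in CM and from -1.09 to -0.998 in NCM. The part of the other markers in the PECAM1 value was not tested. All 4 measured monocyte and macrophage markers lay between 0.17 and 0.30, and 2 of them were at or below the median probe level.

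Among the 15 leading genes in the lower direction, MAN1A1, a Golgi mannosidase that trims N-glycans, had the largest difference. It had -3.62, -2.05 and -1.82 in CM and -1.36, -1.45 and -0.86 in NCM, a change of -1.27 (SE 0.36, n = 3 pairs, limma adjusted p 0.910). The CM array of S1 was at the floor, and without S1 the value was -0.78. PPP4C, a phosphatase subunit, had -1.95, -3.10 and -1.50 in CM and -1.27, -1.25 and -0.80 in NCM, a change of -1.08 (SE 0.33), which was -0.69 without S2. SEC24B, a coat subunit of vesicles leaving the endoplasmic reticulum, had -0.76, GOLGA7, a Golgi protein gene, -0.76 and CNPY3, a chaperone gene of Toll-like receptors, -0.91, and in each every CM array lay below every NCM array. Without S1 these 3 had -0.46, -0.42 and -0.58. NUDT21, of an mRNA cleavage factor, had -0.58, the histone gene H2AZ1 -0.74, MED28 of the Mediator complex -0.65 and MMADHC of cobalamin metabolism -0.83. The other probe of MED28 had 0.12, and the mean of its probes was -0.26. TMEM181, BRF2, FBXO31, RELN, ATP2B2 and ADGRA3 lay between -0.94 and -0.59. The CM array of S1 was at the floor for RELN, which had -0.41 without S1. TMEM181 and ATP2B2 had -0.50 and -0.53 without S1, and BRF2 and MED28 -0.46 and -0.34 without S3. Over all genes every CM array lay above every NCM array in 2.22% and below in 2.65%. The 30 leading genes were picked by their p and direction in this contrast, so their separation is a description. Only the higher group mean had to pass the 25th percentile of probe levels, so a gene low in 1 medium could be picked. ANXA1, ABCA1, MAN1A1, PPP4C, SEC24B, RELN and GOLGA7 were among the dimmest 25% of probes over the 42 arrays.

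Most genes of 2 housekeeping lists lay below 0. Cytosolic ribosomal proteins, 54 measured, had 42 genes below 0 and a median of -0.11, but the median was -0.17 in S1, 0.21 in S2 and -0.25 in S3, and with median centring it was 0.08. RPS3A had -0.77 and RPS24 -0.54, each lower in 3 of 3 pairs. RPS15 had 0.83, from differences of 0.04, 2.62 and -0.18, and was, like FETUB, among 23 probes that were over 4-fold higher in CM of S2. Ribosomal protein genes have many near-identical pseudogenes, and their probes may share transcripts. Of 59 respiratory chain genes 38 lay below 0, with a median of -0.08. By pair this median was -0.16, 0.05 and -0.15, and with median centring it was 0.01. In that list the complex I genes NDUFB7 and NDUFS6 had 0.51 and 0.86, but -0.12 and 0.013 on their other probes, and UQCRC1 had -0.75.

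The same genes were then read at the other times, whose arrays are separate from those of 6 h. Of the 15 leading higher genes 9 were above 0 at T0, at 15 min and at 3 h, and 8 at 30 min, 1 h and 16 h, so that the count at 3 h and 16 h was no higher than at T0. Over all genes 49.9% lay above 0 at 3 h and 53% at 16 h. Higher in 3 of 3 pairs were 7 of the 15 at 3 h, 5 at 16 h and 4 at T0, where over all genes the shares were 13.5%, 14.6% and 9.57%. Their median was 0.21 at 3 h, 0.11 at 16 h and 0.06 at T0. Of the 15 leading lower genes 6 were below 0 at 3 h and 9 at 16 h, with medians of 0.02 and -0.02. Across 5631 genes the 6 h changes correlated with those at 16 h at a Pearson's r of 0.24 and with those at 3 h at 0.14, against 0.02 for T0 and -0.08 for 30 min (a description over genes, which are not independent replicates).

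Single genes followed several courses. IL32 had 0.91 at 3 h, 1.24 at 6 h and 0.92 at 16 h, each higher in 3 of 3 pairs, against 0.07 at T0. ABCA1 had 0.84, 1.11 and 0.69, PSME1 0.37, 0.86 and 0.95, and CCL20 0.68, 1.01 and 1.29 at the same times, also higher in 3 of 3 pairs. CFB had -0.14 at 3 h, 0.83 at 6 h and 1.47 at 16 h, but 0.41 at T0, where it was higher in 3 of 3 pairs. On their brightest probes ANXA1, CEBPB, PECAM1 and TET2 had their highest value at 6 h and -0.03, -0.12, -0.05 and -0.34 at 16 h. MAN1A1, by contrast, had 0.15 at 3 h and 0.23 at 16 h. The other probes of CEBPB differed from its brightest at 16 h. Probe 10615 had 0.38 at 6 h and 0.72 at 16 h, and probe 9631 had 1.04 and 0.31.

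On their brightest probes a few genes, picked after their values were seen, had their largest values before 6 h. NFKBIA had 1.09 at 30 min, 1.23 at 1 h, 0.70 at 3 h and 0.11 at 6 h. CXCL2 had 0.98 at 1 h and 0.69 at 3 h against 0.11 at 6 h. NFKB1 had 1.23 at 3 h against 0.32 at 6 h. Its other probes had 0.178 and 0.155 at 3 h and 0.078 and 0.156 at 6 h. For IGFBP1, whose product binds insulin-like growth factors, the value was 1.38 at 3 h against 0.68 at 6 h. The other IGFBP1 probe had -0.36 at 1 h, 0.31 at 3 h and -0.30 at 6 h. CEBPD had 1.14 at 1 h and 0.55 at both 3 h and 6 h. On its other probes the values were 0.135 and 0.432 at 1 h, -0.041 and 0.151 at 3 h, and -0.645 and -0.047 at 6 h. The changes at 15 min, 30 min and 1 h were not tested against that at 6 h. For the change at 6 h minus that at T0, at 3 h, and for 16 h minus 6 h, limma called 0 probes each, with 543, 419 and 319 probes at an unadjusted p under 0.05 and a smallest adjusted p of 1 in each.

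**Figure D5:**
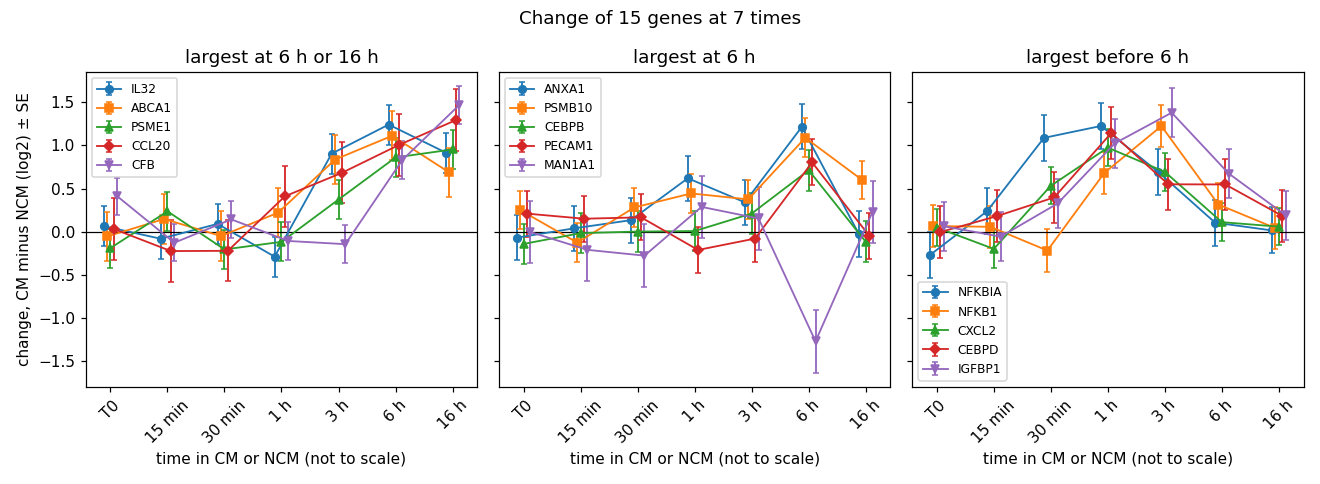
The y axis gives the change (CM minus NCM, log2) with SE bars of the limma fit and n = 3 pairs per time. The x axis gives the 7 times, evenly spaced and not to scale, for 15 genes chosen after their values were seen. Each gene is shown by its brightest probe, and other probes of CEBPB, NFKB1, CEBPD and IGFBP1 followed other courses. The left panel holds genes with their largest change at 6 h or 16 h such as IL32 (1.24 at 6 h) and CFB (1.47 at 16 h), the middle panel genes with it at 6 h such as ANXA1 (1.22) and MAN1A1 (-1.27), and the right panel genes with it before 6 h such as NFKBIA (1.23 at 1 h, 0.11 at 6 h).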

How the data were processed

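The series holds 42 arrays of Hep3B total RNA, each from its own culture, in 14 groups of 3. The deposited values are linear intensities, 1 per probe and array, with a mean of 0.999 to 1.00 per array and at most 2.12% of values below 0. What array and scanner the authors used, and how they treated background and scale, is not given in the sources used here. Here all arrays were quantile normalized on the linear scale, the common 1st percentile served as a floor, and values were put on the log2 scale. R 4.3.3 with limma 3.58.1 fitted a term for each pair and a CM effect for each time (14 residual degrees of freedom, prior SD 0.31 on 6.26 degrees of freedom), so the SE pools the spread of all times. Two-sided p-values were adjusted over 13824 probes (Benjamini-Hochberg), with a threshold of 0.05. The labels give the pairs, and the deviations of paired arrays from their group means correlated at 0.308 to 0.754 in 21 of 21 pairs.

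Names came from the platform annotation, matched by Entrez ID to a GRCh38.p14 gene table (7322 of 7336 probes). Of 5912 probes with no gene and 576 with several, none is named. Named genes were first the 15 in each direction with the smallest p. These came from genes with 3 of 3 pairs alike and the higher group mean at 6 h above the 25th percentile of probe levels. Also named were 27 fixed genes (25 measured), up to 4 members per list by p, and the other probes of all these genes. Any other gene in the text was picked after seeing its values. The members, the 31 lists and the rules were chosen with earlier results of these data known. Lists are described by counts and medians only. The alternatives were no replicate block, values as deposited, median centring, a floor at the 10th percentile, leaving out the dimmest 25% or 50% of probes, 6 h arrays alone, an intensity trend with robust spread, averaged probes, neighbour centring, leaving out 4 probes with copied values, and leaving out each 6 h replicate. Steps were tested on artificial data with known answers. Plots used matplotlib.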

Additional observations from a re-analysis of the deposited data

How the results depend on the processing

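The count of 0 probes at 6 h was the same under 12 of 13 alternatives. The exception was leaving out the S3 pair, where limma called 1 probe, a probe that names several genes and had differences of 1.73, 1.77 and -1.63, so that leaving out replicates gave 0 to 1 calls. Without the pairing, with no replicate block, 0 probes were called and 143 had an unadjusted p under 0.05, against 520 with it, and the pairing changed no other call. In the values as deposited 63 of the 190 probes at an unadjusted p under 0.05 were higher, and with median centring 162 of 213, against 305 of 520, with all-gene medians of -0.11, 0.06 and -0.02. Counts between times were 0 under every alternative run. Probes past 1.5-fold in each pair, 26 higher and 18 lower, numbered 7 and 11 in the values as deposited, 10 and 2 with median centring, 14 and 8 with the floor at the 10th percentile, 11 and 5 without the dimmest 25% of probes, and 5 and 3 without the dimmest 50%.

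The median of acute phase proteins that rise was above 0 in 11 of 11 alternatives and moved to 0.37 with median centring. That of acute phase proteins that fall was -0.10 as deposited, 0.079 with median centring and -0.13 with averaged probes. The antigen presentation median was 0.20 with median centring. The NF-kappaB median was 0.024 as deposited, 0.15 and 0.32 without the dimmest 25% and 50%, and 0.18 with neighbour centring, and without single replicates it ran from 0.15 to 0.23. The apoptosis median was 0.067 and 0.055 without the dimmest 25% and 50%, which left 5 and 4 genes. The causes were not tested.

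Of 1004 values of 88 genes under the alternatives, 26 in 15 genes changed sign and 0 passed the threshold. As deposited these were NFKBIA -0.15, TTR -0.12 and C3 -0.16. With median centring they were CRP 0.15, SOCS3 0.05, AFP 0.062 and STAT3 0.094. With averaged probes they were CRP 0.50, ALB -0.15, CEBPD -0.048, TAPBP 0.13, TTR -0.13, HPX 0.005 and STAT3 0.017. Without single replicates the ranges of the genes that changed sign were ALB -0.048 to 0.073, C3 -0.33 to 0.26, CRP -0.16 to 0.015, CXCL2 -0.019 to 0.18, FETUB -0.008 to 2.001, HPX -0.36 to 0.24, IL1R1 -0.026 to 0.28, RPS15 -0.068 to 1.33, SOCS3 -0.23 to 0.10, TAPBP -0.81 to 0.006 and TTR -0.084 to 0.10. None of the 30 leading genes changed sign in the alternatives run. They had been picked with all pairs alike in sign, so leaving out a single replicate could not reverse them. Fitting no replicate block does not alter a mean change either. The runs that could have reversed them include values as deposited, median centring and averaged probes.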

Other observations

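Some probes were far apart in 1 pair and close in the others. In S2 23 probes were over 4-fold higher and 35 over 4-fold lower in CM, and in 18 and 28 of them the other pairs differed by under 1.5-fold. The same counts of higher and lower probes were 26 and 14 in S1 and 9 and 4 in S3.

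If probe numbers are read as places on 36 grids of 16 by 24 spots, an assumption from the numbering, 14 of the 23 probes higher in S2 fell in rows 8 to 9 and columns 2 to 4 of the first 8 grids. That window holds 48 probes, with a median difference of 1.09 in S2, 0.05 in S1 and 0.14 in S3, against 0.02 for all other probes in S2. It was picked after these values were seen, so its count and median in S2 are a description. The named genes there were ABCF3, C9orf164, FETUB, LEPROTL1, RBP4, RNPS1 and RPS15.

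TGM2 and CD5L had even differences in all 3 pairs. The former, of a tissue transglutaminase, had 0.67, 0.65 and 0.66 (change 0.66, SE 0.23, limma adjusted p 0.999). The latter, of a secreted scavenger receptor protein, had 0.66, 0.79 and 0.73 on probe 2097 (change 0.72, SE 0.22, limma adjusted p 0.990), with 0.18, 0.31, -0.21 and 0.22 on its other probes.

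Among the 26 probes past 1.5-fold in each pair in the higher direction, 13 of the 14 without a gene name are numbered above 12000.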
